A study of Mus musculus with 6 samples.

Results

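The genes described here are the ligands, receptors, secreted antagonists and intracellular effectors of Wnt signalling, measured in retinal ganglion cells (RGCs), the neurons whose axons form the optic nerve. They were chosen by gene symbol alone, as the Wnt, Fzd, Sfrp and Dkk genes, Lrp5 and Lrp6, Axin1 and Axin2, Lef1, Tcf7 with its Tcf7l relatives, and Ctnnb1, which gave 46 of the 24060 genes in the table. RNA from 3 embryonic samples (E18, replicates 1, 3 and 4) was compared with RNA from 3 postnatal samples (P5, replicates 6, 8 and 9). All came from C57BL/6 mice, and the labels name no mutation, transgene, injury, virus or drug for them. The comparison sets RGCs at an age when their axons grow readily against RGCs at an age when that ability is reduced. Cells were freed from retinas with papain, depleted of macrophages and held on dishes coated with an antibody to CD90 (Thy1). Nothing states how many animals each sample pooled or that samples came from separate litters, so p-values measure the spread between these samples, which may be technical.

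Wnt proteins are secreted ligands that bind Frizzled receptors on the cell surface. With Lrp5 or Lrp6 as co-receptor, they keep the complex built on Axin from degrading beta-catenin, which then enters the nucleus and acts on genes through the TCF and LEF factors. Secreted Frizzled-related proteins bind Wnts or Frizzleds, and several Dickkopf proteins bind the co-receptors. In the retina the pathway is known for its part in progenitor growth, the formation of blood vessels and the guidance of RGC axons.

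The deposited counts on genes summed to between 81213639 and 114512853 per sample. Of the 16449 genes that passed edgeR's filter on low counts, 7135 (43.4%) were called, which here means an adjusted p under 0.05 between the ages in its quasi-likelihood test, with 20.8% higher and 22.5% lower at E18. Fold changes are given as log2 of E18 over P5, and levels as CPM, the counts of a gene scaled to a common, normalized library size. The 15 RGC markers summed to 10600 to 12200 CPM across all 6 samples, but 10 of them (66.7%) were called, 5 higher and 5 lower at E18. Among those lower was Thy1, the antigen by which the cells were held. It measured 212, 217 and 312 CPM at E18 and 500, 469 and 690 CPM at P5. The E18 samples differed among themselves in markers of dividing cells, progenitors and amacrine cells, with the lowest sums of these 3 lists in E18 replicate 4. The 14 markers of dividing cells summed to 425, 191 and 132 CPM in E18 replicates 1, 3 and 4 and to 103 to 122 CPM at P5, and 10 of them were higher at E18 and 0 lower. The 12 progenitor markers summed to 1070, 1040 and 843 CPM at E18 and to 610 to 774 CPM at P5, with 7 higher and 0 lower. Most of this sum was Pax6, which was not called, at 661, 751 and 622 CPM at E18 and 498 to 629 CPM at P5. The sum therefore says little about the less abundant progenitor markers. The 11 amacrine cell markers summed to 105, 209 and 15.9 CPM at E18 and to 19.6 to 29.6 CPM at P5, and 5 of the 8 tested were higher and 0 lower. None of the markers of these 3 lists was at 0 counts in any sample. The called Wnt genes and the 6 other pathway genes named by their size of change are also given with E18 replicate 4 as the only E18 sample. In bulk RNA, fewer cells of a type and less RNA per cell cannot be told apart.

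Of the 46 Wnt genes, 32 passed the filter on low counts, and 10 of these were higher and 6 lower at E18, while 16 were not called. The higher genes were Wnt7a, Fzd3, Fzd4, Fzd5, Fzd8, Lrp5, Lrp6, Sfrp4, Axin1 and Tcf7. The lower genes were Wnt9a, Wnt11, Fzd6, Fzd9, Dkk2 and Dkk3. Thus 16 of 32 were called, where 43.4% of all genes tested were. At least a 2-fold called difference was found for 11 of the 32 genes (34.4%), against 15.9% of all genes tested, and no test was made of either difference in share. Values did not overlap between the ages for 17 of the 32 genes, where 56.1% of all genes tested did not overlap. The median log2 fold change was 0.04 beside 0.00 for all genes, with 16 values above 0 and 16 below. The median size of the change, regardless of sign, was 0.54 beside 0.39. Co-receptors were called in 1 direction and ligands, Frizzleds and antagonists in both.

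**Figure D1:**
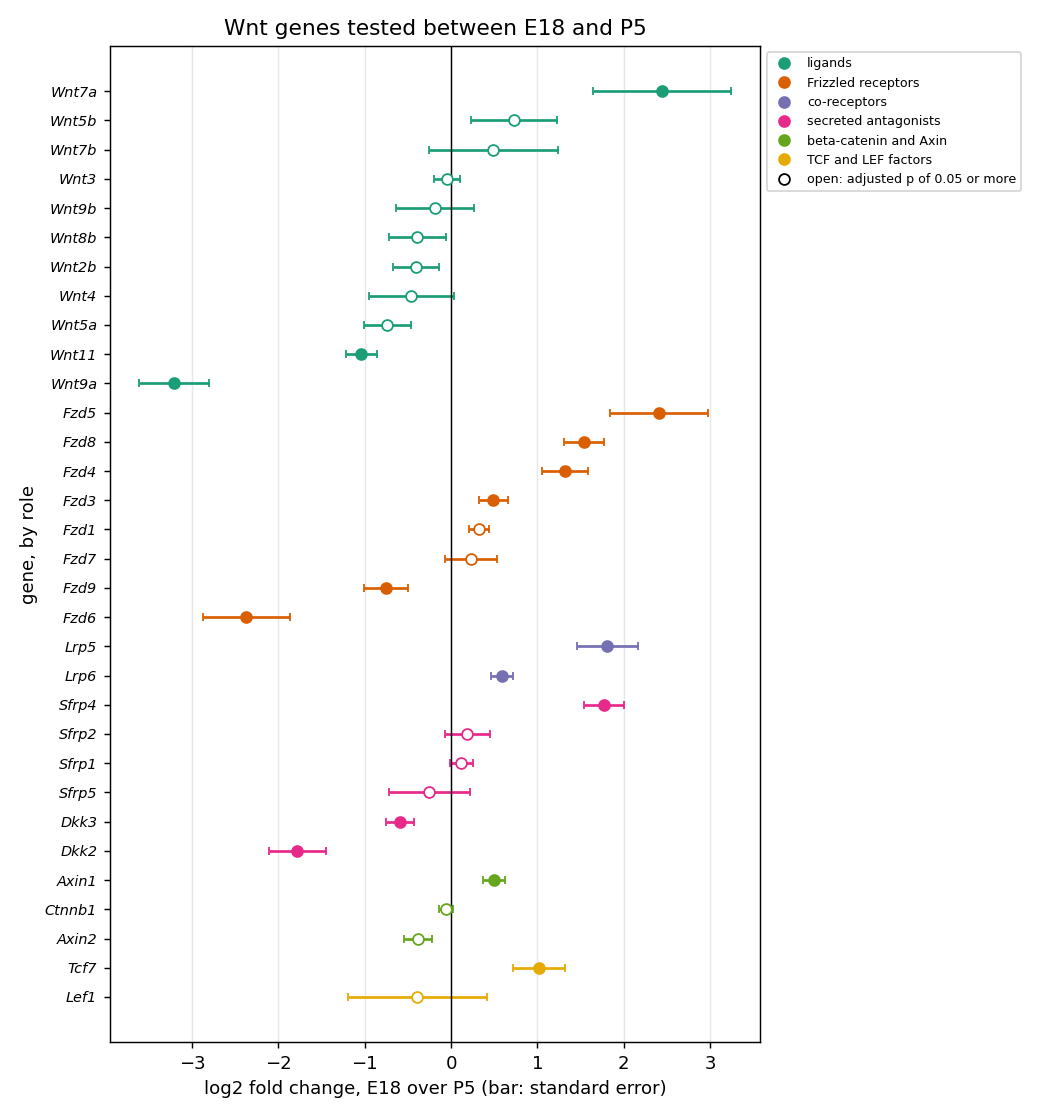
Log2 fold change of E18 over P5 (horizontal axis) for the 32 Wnt genes tested, grouped by role on the vertical axis, with bars of 1 SE of the fitted model. Filled points are the 16 genes called by edgeR's quasi-likelihood test, and they lie between -3.21 (Wnt9a) and 2.44 (Wnt7a).

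To show the sequence at the genes that moved most, the RefSeq promoter table of build GRCm38.p6 was read, which held 31 of the 46 genes. Printed are the 100 bases from 120 to 21 bases before the annotated start of the pair of called genes with the largest positive fold changes and the pair with the most negative ones among those in the table, 5′ to 3′ on the strand of the gene, with each CG in capitals.
Wnt7a: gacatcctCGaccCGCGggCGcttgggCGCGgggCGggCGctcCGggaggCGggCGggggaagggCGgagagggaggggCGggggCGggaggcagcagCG
Fzd5: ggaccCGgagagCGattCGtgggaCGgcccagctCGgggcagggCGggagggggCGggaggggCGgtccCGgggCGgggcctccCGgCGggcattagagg
Wnt9a: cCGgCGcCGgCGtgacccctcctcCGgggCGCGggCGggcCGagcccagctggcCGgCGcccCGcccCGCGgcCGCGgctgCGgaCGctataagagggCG
Dkk2: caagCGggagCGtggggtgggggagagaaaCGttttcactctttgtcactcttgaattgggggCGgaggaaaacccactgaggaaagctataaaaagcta
These stretches are chr6:91411374-91411473 on the minus strand for Wnt7a, chr1:64737771-64737870 on the minus strand for Fzd5, chr11:59306810-59306909 on the plus strand for Wnt9a and chr3:132085172-132085271 on the plus strand for Dkk2. CG occurred 15 times in the Wnt7a stretch, 12 times in that of Fzd5, 19 times in that of Wnt9a and 4 times in that of Dkk2. The stretches of Wnt7a and Fzd5, both higher at E18, and of Wnt9a, lower at E18, thus held more CG than that of Dkk2. Over the full 250 bases before the start, the 40 promoter sequences of the Wnt genes held a median of 22 CG, between 4 and 48, and all 32851 promoter sequences of the table, which also cover genes that do not code for protein, held a median of 6.

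The binding motif of the TCF and LEF factors was searched as CTTTGAT on both strands, from 250 bases before to 50 bases after the start. It was present in 1160 of 27025 genes of the table (4.29%) and in 2 of the 31 Wnt genes found there, Wnt11 and an internal start of Wnt5b. In Wnt11, which was lower at E18, it lay on the minus strand, beginning 51 bases before the start, within chr7:98835021-98835107. The stretch is printed on the plus strand with the motif, read there as its reverse complement, in capitals.
Wnt11: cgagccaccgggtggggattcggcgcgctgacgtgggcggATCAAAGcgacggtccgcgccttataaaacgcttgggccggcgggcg
A match of these letters is a description of the sequence and not evidence of binding.

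Among the 19 ligands, 11 were tested, and Wnt7a was higher while Wnt9a and Wnt11 were lower at E18. The share called was 27.3%, beside 43.4% of all genes tested, and the difference in share was not tested. Wnt9a (ENSMUSG00000000126.11, chromosome 11 of mm10, 59306928 to 59333552, plus strand) is a ligand known from joint and blood development. It measured 0.205, 0.143 and 0.276 CPM in E18 replicates 1, 3 and 4, and 1.11, 2.19 and 2.46 CPM in P5 replicates 6, 8 and 9. Every P5 sample lay above every E18 sample. The E18 levels were 17, 16 and 25 counts, against 98, 216 and 231 counts at P5, so the size of the change rests on few E18 reads. The log2 fold change was -3.21 (standard error, SE, 0.400; adjusted p = 0.000691 in edgeR's quasi-likelihood test), the most negative of the 32 genes, and with E18 replicate 4 as the only E18 sample it was -2.78 (adjusted p = 0.0171 in the same edgeR test). Its neighbour Wnt3a, which lies on the opposite strand and starts at base 59290752, had between 0 and 4 counts in every sample.

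Wnt11 (ENSMUSG00000015957.12, chromosome 7, 98835112 to 98855195, plus strand) codes for a ligand best known for signalling without beta-catenin in cell movements. Its levels were 2.51, 2.27 and 2.93 CPM at E18 and 5.04, 5.52 and 5.30 CPM at P5, close together within each age and without overlap. The log2 fold change was -1.04 (SE 0.178, edgeR adjusted p = 0.00245). With E18 replicate 4 alone it was -0.84 (edgeR adjusted p = 0.126).

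Wnt7a (ENSMUSG00000030093.7, chromosome 6, 91363981 to 91411363, minus strand) codes for a ligand known from synapse formation and the growth of brain vessels. It measured 0.567, 1.03 and 0.0884 CPM in E18 replicates 1, 3 and 4, against 0.102, 0.163 and 0.0425 CPM at P5. Replicates 1 and 3 were high, whereas replicate 4 lay among the P5 samples. Reads were few, with 8 counts in E18 replicate 4 and 9, 16 and 4 counts at P5. The log2 fold change of 2.44 (SE 0.801, edgeR adjusted p = 0.0363) became 1.66 without E18 replicate 3 (adjusted p = 0.159), and the call was also lost without E18 replicate 1, P5 replicate 6 or P5 replicate 9, at 2.45, 2.43 and 2.08. Without E18 replicates 1 and 3 together it was -0.20 (edgeR adjusted p = 0.925). The amacrine cell marker Tfap2b, a transcription factor, measured 47.5, 119 and 1.62 CPM at E18 and 1.02 to 1.55 CPM at P5, with the same replicates high and in the same order. Of the 11 amacrine cell markers, 8 had this order among the E18 samples, and so did the called genes Fzd3, Lrp6, Axin1 and Tcf7. Tfap2b had the largest fold change of the list. Of the 8 markers tested, 6 had positive fold changes and 2 negative ones, Gad2 (-0.28 in log2 terms) and Slc6a9 (-0.21). The part of amacrine cells in the Wnt7a difference was not tested.

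Wnt3 (ENSMUSG00000000125.5, chromosome 11, 103774150 to 103817957, plus strand), a ligand of the beta-catenin branch, measured 9.78 ± 1.49 CPM at E18 (SD, n = 3) and 10.1 ± 0.718 CPM at P5 (n = 3). Per kb of exon it was the leading ligand, with 49.8% ± 4.01 of the summed ligand level at E18 (SD, n = 3) and 39.8% ± 4.80 at P5. The 6 samples lay between 8.88 and 11.5 CPM and the ages overlapped. Its log2 fold change of -0.05 (SE 0.148, edgeR adjusted p = 0.824) turned to 0.02 and 0.01 without E18 replicates 3 and 4. The other 7 ligands not called were Wnt2b, Wnt4, Wnt5a, Wnt5b, Wnt7b, Wnt8b and Wnt9b, with log2 fold changes from -0.74 to 0.73. Of these only Wnt5a, named after its values were seen and known for guiding axons through Ryk, did not overlap between the ages, at 1.43, 1.49 and 1.24 CPM at E18 and 1.66, 3.14 and 2.14 CPM at P5 (edgeR adjusted p = 0.0551).

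**Figure D2:**
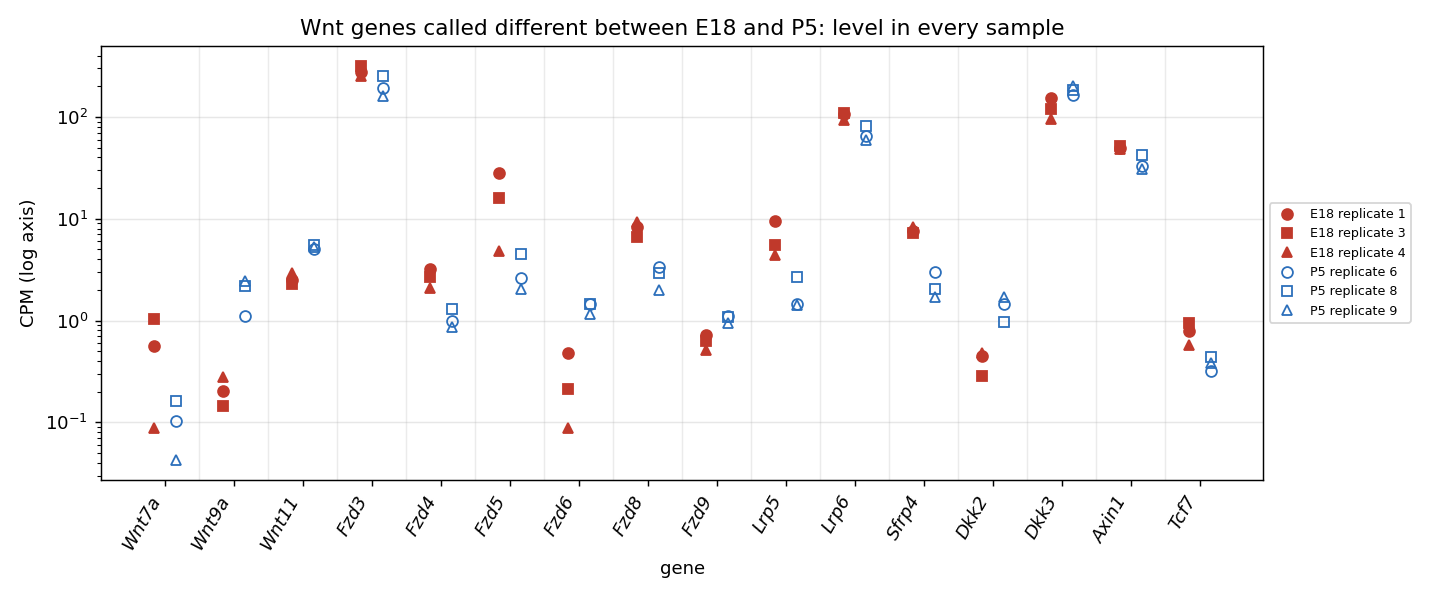
CPM (vertical log axis) of the 16 called Wnt genes in each sample, E18 in filled red and P5 in open blue symbols. Wnt7a is the gene whose E18 replicate 4, at 0.0884 CPM, lies among the P5 samples, and the other 15 genes do not overlap between the ages.

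Frizzled receptors were the role with the most called genes, with 4 higher and 2 lower among the 8 tested of 10. This was 75.0%, beside 43.4% of all genes tested, and the difference in share was not tested. Fzd5 (ENSMUSG00000045005.9, chromosome 1, 64730558 to 64737751, minus strand) is a receptor known from the eye field and retinal progenitors. It measured 28.2, 15.8 and 4.85 CPM in E18 replicates 1, 3 and 4, and 2.62, 4.53 and 2.02 CPM at P5. The 3 E18 samples were spread widely, and the lowest of them lay just above the highest P5 sample. The log2 fold change was 2.41 (SE 0.567, edgeR adjusted p = 0.00969), 1.76 without E18 replicate 1 (adjusted p = 0.0256) and 2.31 without P5 replicate 6 (adjusted p = 0.0535), where the call was lost. With E18 replicate 4 alone it was 0.67 (edgeR adjusted p = 0.342). Of the 12 progenitor markers, 7 had the order of Fzd5 among the E18 samples and 5 did not. Fgf15 and Rax, from the 7, measured 21.2, 4.27 and 0.884 CPM and 6.86, 1.53 and 0.718 CPM in the same 3 samples, with at most 0.316 and 0.437 CPM at P5, whereas Zic1, from the 5, was highest in E18 replicate 4, at 55.3, 70.2 and 120 CPM, and Sox2 measured 45.7, 69.3 and 0.950 CPM. The part of progenitors in the Fzd5 difference was not tested.

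Fzd8 (ENSMUSG00000036904.6, chromosome 18, 9212163 to 9218136, plus strand), a close relative of Fzd5, measured 8.35, 6.56 and 9.19 CPM at E18 and 3.36, 2.93 and 2.01 CPM at P5. It was highest in E18 replicate 4, and the part of progenitors in its difference was not tested. Its log2 fold change was 1.54 (SE 0.231, edgeR adjusted p = 0.00141), and with E18 replicate 4 as the only E18 sample it was 1.74 (adjusted p = 0.00907). Fzd4 (ENSMUSG00000049791.4, chromosome 7, 89404355 to 89413134, plus strand), the receptor of Norrin in retinal vessels, measured 3.22, 2.66 and 2.09 CPM at E18 and 1.00, 1.31 and 0.861 CPM at P5. The ages did not overlap, with a log2 fold change of 1.32 (SE 0.261, edgeR adjusted p = 0.00454), or 0.99 with E18 replicate 4 alone (adjusted p = 0.153). Endothelial markers did not move together beside it. Cdh5 and Tie1 had at most 6 and 4 counts and were at 0 in some samples of both ages, Pecam1 and Tek were lower at E18, and Kdr, a growth factor receptor of vessels also found in other retinal cells, was higher, at 69.5, 62.9 and 14.1 CPM against 4.79 to 11.3 CPM. All 9 endothelial and pericyte markers summed to 16.4 to 72.5 CPM at E18 and 14.5 to 17.7 CPM at P5, with 1 higher and 3 lower of the 7 tested. Most of the E18 sums was Kdr. Rgs5, the third of those lower, measured 0.0964, 0.107 and 0.133 CPM at E18 and 2.44, 1.47 and 3.08 CPM at P5.

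Fzd3 (ENSMUSG00000007989.7, chromosome 14, 65192449 to 65262463, minus strand), a receptor needed for the growth and guidance of many axons, was the leading Frizzled. Per kb of exon it took 61.0% ± 3.66 of the summed Frizzled level at E18 (SD, n = 3) and 62.0% ± 2.53 at P5. Levels were 276, 319 and 255 CPM at E18 and 192, 254 and 159 CPM at P5, where P5 replicate 8 lay just under the lowest E18 sample. In log2 terms the difference was 0.49 (SE 0.166, edgeR adjusted p = 0.0411), and the call was lost without E18 replicate 1 (0.51), E18 replicate 3 (0.40), P5 replicate 6 (0.44) or P5 replicate 9 (0.34).

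Fzd6 and Fzd9 went the other way. Fzd6 (ENSMUSG00000022297.15, chromosome 15, 39006034 to 39038188, plus strand), which acts in tissue polarity, measured 0.482, 0.214 and 0.0884 CPM at E18 and 1.44, 1.44 and 1.15 CPM at P5. The E18 levels were only 40, 24 and 8 counts. All E18 values were lower, E18 replicate 4 the most, and the log2 fold change of -2.37 (SE 0.501, edgeR adjusted p = 0.00607) became -3.11 without E18 replicate 1 (adjusted p = 0.00222) and -3.90 with E18 replicate 4 alone (adjusted p = 0.00394). Fzd9 (ENSMUSG00000049551.2, chromosome 5, 135248938 to 135251230, minus strand) measured 0.723, 0.624 and 0.508 CPM at E18 and 1.11, 1.08 and 0.935 CPM at P5. Its log2 fold change was -0.75 (SE 0.255, edgeR adjusted p = 0.0419), and the call was lost whichever single sample was left out, with adjusted p from 0.0535 to 0.133 and log2 fold changes from -0.87 to -0.63. Fzd1 and Fzd7 were not called. Fzd1, named after its values were seen, measured 37.0, 38.5 and 39.9 CPM at E18 and 29.0, 35.8 and 27.9 CPM at P5, without overlap (log2 fold change 0.32, edgeR adjusted p = 0.0549), and passed with DESeq2, upper-quartile normalization, the likelihood ratio and exact tests of edgeR, and without P5 replicate 8. The summed CPM of all 10 Frizzleds was 358, 385 and 314 at E18 and 233, 302 and 196 at P5.

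The co-receptors Lrp5 and Lrp6 were both higher at E18. Lrp5 (ENSMUSG00000024913.16, chromosome 19, 3584828 to 3686564, minus strand), which also serves Norrin in retinal vessels, measured 9.45, 5.50 and 4.40 CPM at E18 and 1.46, 2.65 and 1.41 CPM at P5. The lowest E18 sample exceeded the highest P5 sample, with a log2 fold change of 1.81 (SE 0.353, edgeR adjusted p = 0.00437), 1.43 without E18 replicate 1 (adjusted p = 0.0117) and 1.26 with E18 replicate 4 alone (adjusted p = 0.0742). Lrp6 (ENSMUSG00000030201.15, chromosome 6, 134446476 to 134566965, minus strand) measured 108, 109 and 93.2 CPM at E18 and 65.4, 81.3 and 58.9 CPM at P5. Its difference was smaller, with a log2 fold change of 0.59 (SE 0.131, edgeR adjusted p = 0.00750), or 0.45 with E18 replicate 4 alone (adjusted p = 0.218). Lrp6 took 91.3% ± 2.88 of the level of the pair per kb of exon at E18 (SD, n = 3) and 96.1% ± 0.794 at P5.

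Of the 8 secreted antagonists, 6 were tested, with Sfrp4 higher and Dkk2 and Dkk3 lower. Sfrp4 (ENSMUSG00000021319.7, chromosome 13, 19623104 to 19632994, plus strand), a secreted Frizzled-related protein, measured 7.63, 7.16 and 8.24 CPM at E18 and 3.00, 2.05 and 1.70 CPM at P5. The E18 samples lay close together, and replicate 4 was the highest of them. E18 over P5 gave a log2 fold change of 1.77 (SE 0.229, edgeR adjusted p = 0.000801) and 1.88 with E18 replicate 4 alone (adjusted p = 0.00802). Sfrp1, Sfrp2 and Sfrp5, of the same family, were not called, with log2 fold changes of 0.12, 0.19 and -0.25 and overlapping values.

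Dkk3 (ENSMUSG00000030772.6, chromosome 7, 112116017 to 112159057, minus strand), the Dickkopf relative whose action on Wnt signalling is least settled, led the antagonists with 82.2% ± 2.22 of their summed level per kb of exon at E18 (SD, n = 3) and 89.9% ± 1.01 at P5. It measured 152, 121 and 95.1 CPM at E18 and 166, 186 and 201 CPM at P5, with every P5 sample above every E18 sample. This was a log2 fold change of -0.59 (SE 0.162, edgeR adjusted p = 0.0187), and the call was lost without E18 replicate 3 (-0.57, adjusted p = 0.0619) or P5 replicate 9 (-0.52, adjusted p = 0.0590). It held with E18 replicate 4 alone, at -0.95 (adjusted p = 0.0151). Dkk2 (ENSMUSG00000028031.6, chromosome 3, 132085292 to 132180304, plus strand), which binds Lrp5 and Lrp6, measured 0.446, 0.285 and 0.475 CPM at E18 and 1.44, 0.965 and 1.71 CPM at P5. The ages did not overlap, and the log2 fold change was -1.78 (SE 0.326, edgeR adjusted p = 0.00334), or -1.52 with E18 replicate 4 alone (adjusted p = 0.0916).

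Inside the cell, Ctnnb1 (ENSMUSG00000006932.17, chromosome 9, 120929216 to 120960507, plus strand), which codes for beta-catenin, was not called at 802, 854 and 870 CPM at E18 and 914, 844 and 876 CPM at P5. The ages overlapped, and its log2 fold change was -0.06 (SE 0.0793, edgeR adjusted p = 0.566). Axin1 (ENSMUSG00000024182.16, chromosome 17, 26138688 to 26195811, plus strand), the scaffold of the complex that degrades beta-catenin, measured 49.1, 52.3 and 48.7 CPM at E18 and 33.2, 42.5 and 30.8 CPM at P5. It was higher at E18 in every sample, with a log2 fold change of 0.50 (SE 0.129, edgeR adjusted p = 0.0150), and lost the call without E18 replicate 3 (0.47, adjusted p = 0.0608) or P5 replicate 6 (0.43, adjusted p = 0.0604). Its relative Axin2, widely used as a readout of the beta-catenin branch and named after its values were seen, measured 31.6, 27.9 and 39.5 CPM at E18 and 36.8, 51.2 and 41.0 CPM at P5. These overlapped, with a log2 fold change of -0.38 (SE 0.162, edgeR adjusted p = 0.0860), and Axin2 passed the threshold without E18 replicate 4.

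Transcripts of the nuclear TCF and LEF factors were scarce, with a summed level of 1.96, 1.30 and 0.729 CPM at E18 and 0.665 to 0.755 CPM at P5. Tcf7 (ENSMUSG00000000782.15, chromosome 11, 52252371 to 52283014, minus strand) measured 0.784, 0.945 and 0.574 CPM at E18 and 0.316, 0.437 and 0.383 CPM at P5. Every E18 sample was higher, with a log2 fold change of 1.02 (SE 0.302, edgeR adjusted p = 0.0250). The call was lost without E18 replicate 1 (1.01), E18 replicate 3 (0.84), P5 replicate 6 (0.89) or P5 replicate 9 (1.02). Lef1 overlapped between the ages at 0.0221 to 0.301 CPM at E18 and 0.0508 to 0.316 CPM at P5 and was not called.

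The 14 Wnt genes under the filter on low counts were Wnt1, Wnt2, Wnt3a, Wnt6, Wnt8a, Wnt10a, Wnt10b, Wnt16, Fzd2, Fzd10, Dkk1, Dkk4, Tcf7l1 and Tcf7l2. None exceeded 68 counts or 0.820 CPM in any sample. When all genes with at least 1 count were tested, 4 of the 14 passed. The share of all genes that passed in that fit is not given here, so this count cannot be set against it. Fzd2 had 68, 37 and 10 counts in E18 replicates 1, 3 and 4 and 0, 2 and 2 at P5 (edgeR adjusted p = 0.00138), and Tcf7l2 had 59, 16 and 8 against 3, 10 and 3 (adjusted p = 0.0326). For both genes the order among the E18 samples was that of all 14 dividing cell markers. Wnt1 had 1, 0 and 2 counts at E18 and 20, 4 and 13 at P5 (edgeR adjusted p = 0.0143), and Wnt2 had 3, 1 and 1 against 9, 6 and 12 (adjusted p = 0.0370). Fzd10, at 32, 16 and 3 counts against 6, 3 and 0, did not pass (edgeR adjusted p = 0.0624).

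Divided by exon length, which allows levels to be set side by side between genes, Ctnnb1 led at both ages with a mean of 232 CPM per kb at E18 and 242 CPM per kb at P5. Dkk3 followed at 36.5 and 54.9 CPM per kb, and Fzd3 came next at 22.2 and 15.9 CPM per kb. For these 3 genes the samples of neighbours in the order did not overlap, with Dkk3 at 28.3 or more and Fzd3 at 25.1 or less. Axin1 (12.9 to 13.9 CPM per kb), Lrp6 (9.95 to 11.7), Fzd1 (8.82 to 9.50) and Axin2 (6.55 to 9.27) were the next 4 at E18, with the values of Fzd1 and Axin2 overlapping. At P5 the ranges of Axin2, Axin1, Fzd1 and Lrp6 overlapped between neighbours, so their order there is not separated from the spread. Sfrp1 and Wnt3 also overlapped at both ages, at means of 3.29 and 3.18 CPM per kb at E18 and 3.03 and 3.28 CPM per kb at P5. In all, 15 of the 46 genes exceeded 1 CPM per kb at E18 and 12 at P5. Every sample of Sfrp4 and Fzd8 was above this level at E18 and below it at P5, and the reverse held for Wnt11. The means of Fzd5 and Lrp5 crossed it in the same direction as Sfrp4, but E18 replicate 4 was below it for Fzd5 (0.701 CPM per kb), as were E18 replicates 3 and 4 for Lrp5 (0.916 and 0.732 CPM per kb).

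**Figure D3:**
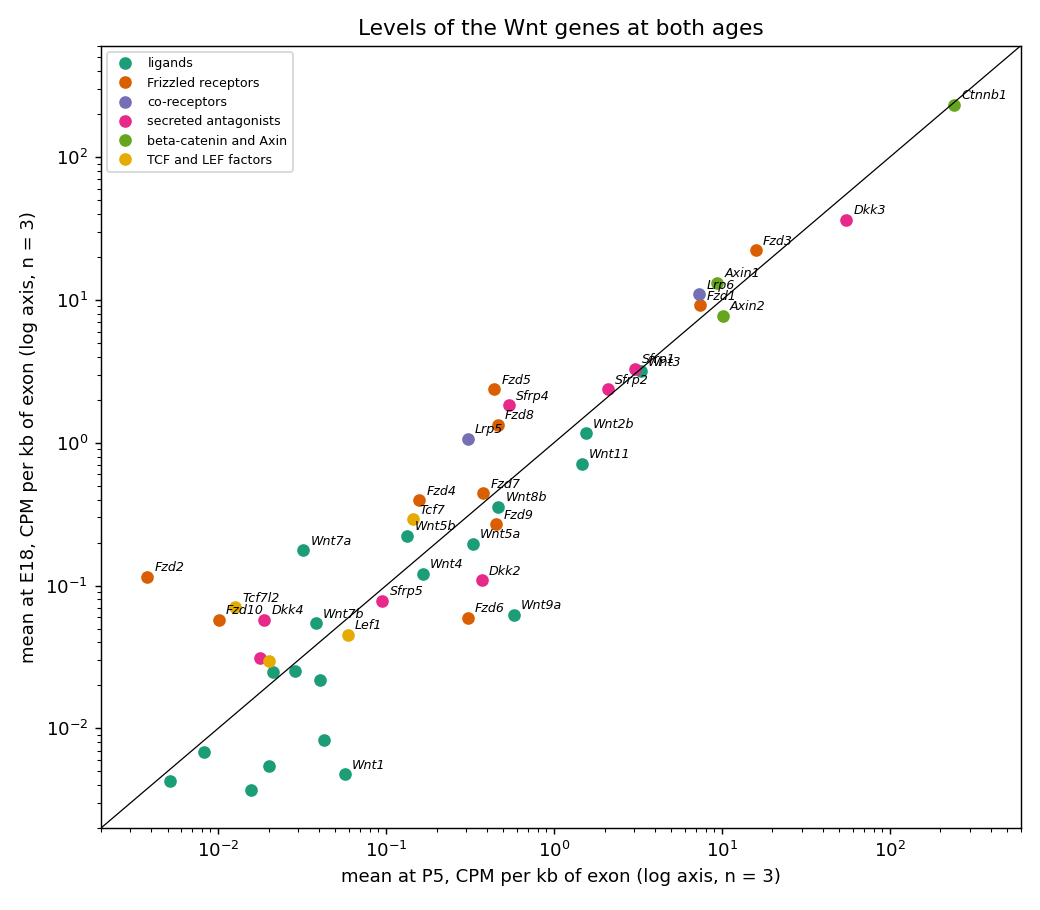
Mean CPM per kb of exon at E18 (vertical log axis, n = 3) against P5 (horizontal log axis, n = 3) for all 46 Wnt genes, coloured by role, with the line of equal levels. Ctnnb1, Dkk3 and Fzd3 are at the upper end near the line, at 232, 36.5 and 22.2 CPM per kb at E18, while Fzd5, Sfrp4, Fzd8 and Lrp5 lie above it and Wnt9a, Fzd6 and Dkk2 below.

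Of 66 other genes of the pathway, 62 were tested, and 20 were higher and 12 lower at E18, which is 51.6% beside 43.4% of all genes tested, with a median log2 fold change of 0.10. Wls, the carrier that brings Wnt proteins to the cell surface, was the furthest below its P5 level, at 0.133, 0.0178 and 0.0663 CPM at E18 and 0.801, 0.457 and 0.914 CPM at P5 (log2 fold change -3.37, SE 0.581, edgeR adjusted p = 0.00253, and -4.12 without E18 replicate 1). These levels were 11, 2 and 6 counts at E18 and 71, 45 and 86 counts at P5, so the size of the change rests on few E18 reads. Porcn, which attaches the lipid to Wnt proteins, was not called at 47.4 to 59.7 CPM over all samples. Among the R-spondins, which enhance Wnt signalling, with their Lgr receptors and ligases, 3 of 7 genes tested were called lower, Rspo3, Lgr4 and Lgr6. This was 42.9%, beside 43.4% of all genes tested. All 7 fold changes were negative, from -1.35 to -0.07 in log2 terms, with a median of -0.37. Rspo3 had 8, 10 and 10 counts at E18 and 29, 27 and 15 counts at P5. Lgr4 measured 78.0, 74.2 and 78.8 CPM at E18 and 91.2, 113 and 94.7 CPM at P5 (log2 fold change -0.37, edgeR adjusted p = 0.0192).

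Other secreted or membrane inhibitors were split, with 3 higher and 3 lower of 9 tested, which is 66.7% beside 43.4% of all genes tested. Wif1, which binds Wnt proteins, measured 1.94, 2.15 and 2.11 CPM at E18 and 0.801, 0.681 and 0.234 CPM at P5 (log2 fold change 1.85, SE 0.400, edgeR adjusted p = 0.00673), and the call was lost with E18 replicate 4 alone, at 1.89 (adjusted p = 0.0536). Draxin, an axon guidance protein that also binds Lrp6, and Apcdd1, a membrane inhibitor, were higher too, Draxin at 88.3, 99.1 and 97.4 CPM against 31.2, 32.2 and 16.2 CPM. Sostdc1, a secreted ligand of Lrp6, was lower at E18, with 0.193, 0.125 and 0.110 CPM against 1.79, 0.538 and 0.808 CPM (log2 fold change -2.87, SE 0.507, edgeR adjusted p = 0.00279, and -2.25 without P5 replicate 6). Its E18 levels were only 16, 14 and 10 counts. Notum, the enzyme that removes the lipid from Wnt proteins, measured 0.506, 0.276 and 0.166 CPM at E18 and 0.823, 1.38 and 0.787 CPM at P5. Its log2 fold change was -1.66 (SE 0.433, edgeR adjusted p = 0.0148), and the call was lost without E18 replicate 3 (-1.57, adjusted p = 0.0612). Dkkl1, a relative of Dkk3, was also lower. Draxin, Apcdd1, Dkkl1 and the R-spondin group are named after their values were seen.

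Norrin, which is no Wnt protein but signals through Fzd4 and Lrp5, and its helper Tspan12 were read beside these receptors. Ndp, the Norrin gene, was not called at 4.42 to 5.70 CPM at E18 and 6.39 to 6.85 CPM at P5 (log2 fold change -0.39, edgeR adjusted p = 0.0759), although the ages did not overlap, and Tspan12 was lower at E18, with 31.2, 35.0 and 35.0 CPM against 68.9, 47.2 and 64.7 CPM (log2 fold change -0.84, SE 0.145, edgeR adjusted p = 0.00253). Tspan12, named after its values were seen, thus differed in the opposite direction to Fzd4 and Lrp5.

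Ror2, a receptor of Wnt5a that acts without beta-catenin, was higher at E18, with 1.51, 1.90 and 1.89 CPM against 0.259, 0.508 and 0.213 CPM (log2 fold change 2.43, SE 0.355, edgeR adjusted p = 0.00128). Its relative Ror1, together with Ryk and Ptk7, was not called. Among 10 genes of planar cell polarity, the branch that orients cells in a sheet and steers axons, 3 were higher and 1 lower. Those higher were Vangl2, Celsr2 and Celsr3, and Vangl1 was lower, with log2 fold changes between -0.52 and 0.83 over the 10 genes. In the cytoplasmic relay and destruction complex, 7 of 17 genes were higher and 2 lower, and of 9 nuclear partners 4 were higher and 1 lower. These shares were 52.9% and 55.6%, beside 43.4% of all genes tested, and the differences in share were not tested. Tle1 and Tle4, corepressors that bind the TCF factors, were among the higher nuclear partners and Tle2 was the lower, although Tle4 overlapped between the ages, at 180, 220 and 149 CPM against 109, 161 and 106 CPM. The polarity genes and Tle genes are named after their values were seen.

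Ccnd1, a cyclin and a known target of beta-catenin, had the largest positive fold change among these genes, and it is also a marker of dividing progenitors. It measured 146, 34.5 and 14.2 CPM in E18 replicates 1, 3 and 4 and 8.83, 10.9 and 5.54 CPM at P5. The log2 fold change of 2.94 (SE 0.739, edgeR adjusted p = 0.0129) was 1.54 without E18 replicate 1 (adjusted p = 0.0168) and 0.76 with E18 replicate 4 alone (adjusted p = 0.179), and the call was lost without P5 replicate 6 or 9 (2.98 and 2.71). Its order among the E18 samples was that of Fzd5, Lrp5 and Fzd4 and of the dividing cell sums. Fzd6, Fzd9 and Dkk3, which were lower at E18, had the same order. The part of dividing cells in these differences was not tested.

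**Figure D4:**
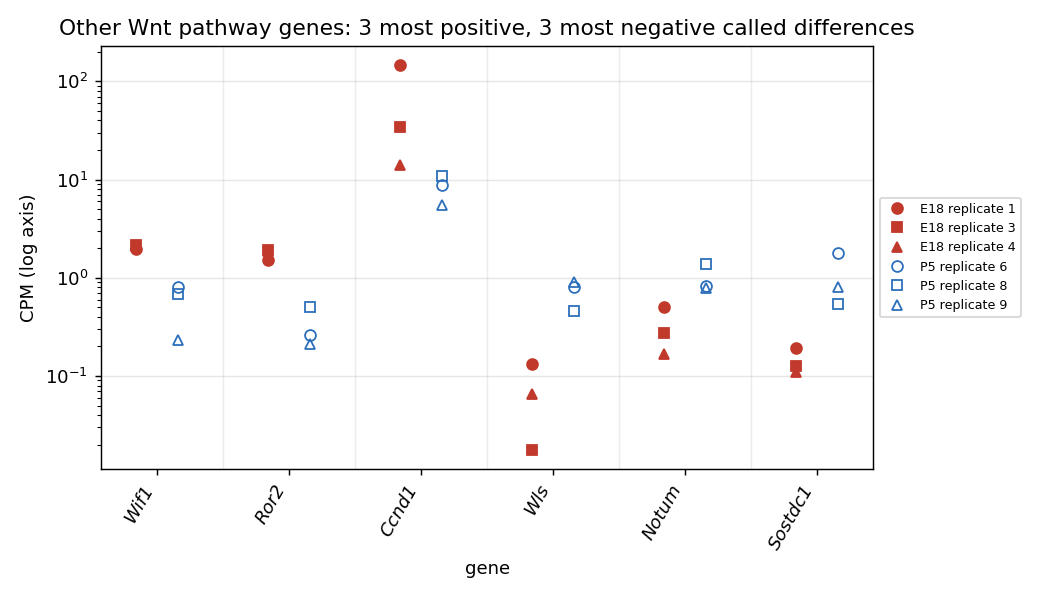
CPM (vertical log axis) in each sample for the 3 other pathway genes with the most positive and the 3 with the most negative fold changes among those called without overlap, E18 in filled red and P5 in open blue symbols. Wif1 and Ror2 are close together at E18, whereas Ccnd1 spreads from 14.2 to 146 CPM, and Wls, Notum and Sostdc1 lie below the P5 samples.

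Among the 10 Wnt genes higher at E18, 3 (30.0%) were highest in E18 replicate 1, beside 28.5% of all genes called higher, and these were Fzd5, Lrp5 and Fzd4. Over all 32 Wnt genes tested, 14 (43.8%) were highest in that sample among the E18 samples, beside 27.6% of all genes tested. With E18 replicates 1 and 3 left out together, 9.48% of 17227 genes tested were called, and 2 Wnt genes were higher (Fzd8 and Sfrp4) and 3 lower (Wnt9a, Fzd6 and Dkk3) by edgeR's quasi-likelihood test. In that fit the lone E18 sample is assumed to vary as the P5 samples do. Of the other pathway genes, Wls (-3.41), Sostdc1 (-3.22), Notum (-2.57) and Ror2 (2.53) kept their calls (edgeR adjusted p from 0.0131 to 0.036), and Wif1 and Ccnd1 lost theirs. Against the P5 samples, E18 replicate 4 alone gave log2 fold changes of 1.74 for Fzd8 and 1.88 for Sfrp4, and of -0.20 for Wnt7a and 0.67 for Fzd5. Those of Fzd3, Axin1, Tcf7 and Fzd9 were 0.35, 0.47, 0.61 and -1.02, and none of these 4 was called (edgeR adjusted p from 0.21 to 0.528). The part of other retinal cells in the remaining differences was not tested.

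**Figure D5:**
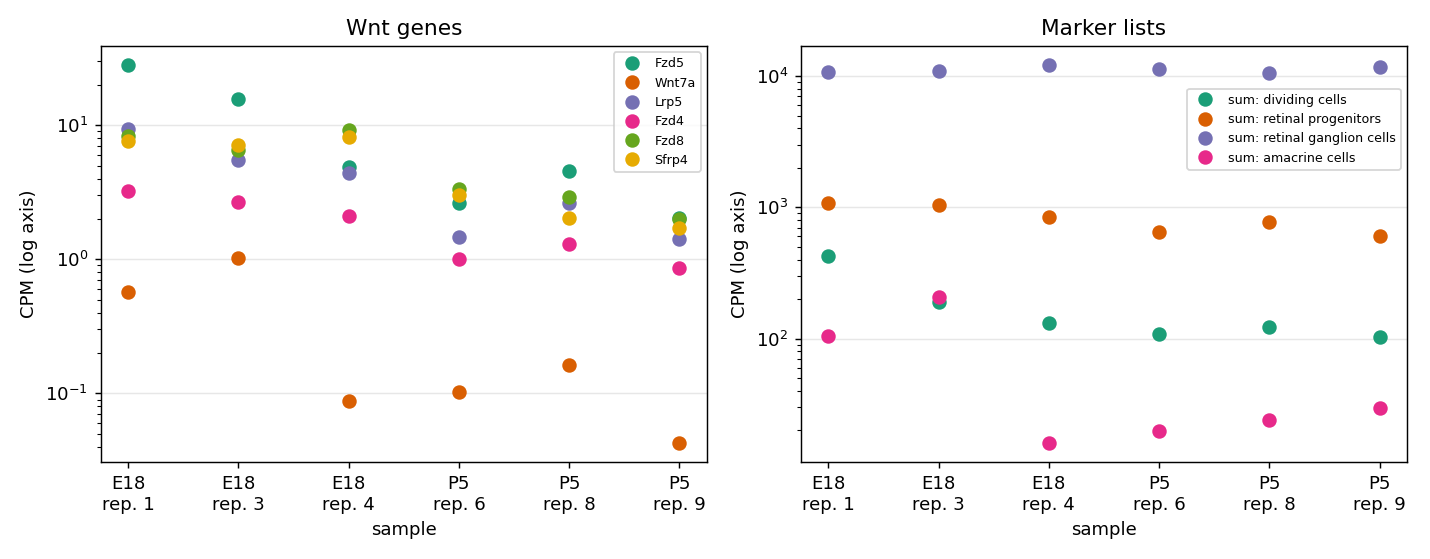
CPM (vertical log axes) by sample for 6 Wnt genes higher at E18 (left) and the summed CPM of 4 marker lists (right). Fzd5 and Wnt7a vary most among the E18 samples, from 4.85 to 28.2 and from 0.0884 to 1.03 CPM, as do the dividing cell sum, from 132 to 425 CPM, and the amacrine cell sum, from 15.9 to 209 CPM, while Fzd8 and Sfrp4 stay between 6.56 and 9.19 CPM.

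No source used here says whether reads were counted by strand, so reads of a gene and of an antisense neighbour cannot be told apart. In the GENCODE annotation of mm10, genes on the opposite strand overlap Fzd5, Fzd6 and Wnt11 among the called Wnt genes, and Axin2, Lef1, Sfrp2, Tcf7l1 and Wnt7b among the others.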

How the data were processed

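RNA-seq covered 3 E18 and 3 P5 samples of immunopanned RGCs, grouped by the age and replicate number in their labels. The count column matched to E18 replicate 1 is named with the numbers 1, 2 and 5. The labels name polyA RNA, whereas the protocol names ribosomal RNA depletion. The authors aligned 100-base paired-end reads to mm10 with STAR 2.4.0, used HT-seq 0.6.1 to count them on RefSeq genes and deposited these raw counts, which are the values used here. Base calling with CASAVA 1.8.2 is given in the submitters' processing notes. The 9 other per-sample columns (normalized counts and per-sample fold changes), and the columns of the authors' own EdgeR comparison with its p-values and a rank, were not used.

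Counts were normalized by TMM and tested over all 16449 genes that passed the expression filter by quasi-likelihood in edgeR 4.0.16 (R 4.3.3), with p-values adjusted after Benjamini-Hochberg and called under 0.05. The script was tested on simulated data with 2-fold changes. Pairs of samples of the same age differed by more than sampling noise. Chi-square values per degree of freedom over genes were 30.5 to 49.0 between E18 samples and 71.9 to 141 between P5 samples. By this measure the P5 samples were less alike than the E18 samples. All were therefore kept as separate samples, and the spread between samples rather than depth sets the precision. CPM uses TMM-normalized library sizes, and levels per kb use the summed exons of the GENCODE basic annotation of mm10.

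The members, the lists of other pathway genes and of markers and the tests were chosen with earlier results of these data known. Named are all members called, the most abundant member of each role, of the other pathway genes called without overlap the 3 with the most positive and the 3 with the most negative fold change, and others only where said. Alternatives were a robust fit, the likelihood ratio and exact tests of edgeR, DESeq2 1.42.0, upper-quartile normalization, no filter or at least 1 CPM in 3 samples, and the omission of each sample. Omission of E18 replicates 1 and 3 together was added after seeing the data. Injured RGCs were not analysed here.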

Additional observations from a re-analysis of the deposited data

How the results depend on the processing

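Over the 13 alternatives set at the start, 8 of the 16 called Wnt genes kept their call in all (Fzd4, Fzd6, Fzd8, Lrp5, Lrp6, Sfrp4, Wnt9a and Wnt11), and 8 lost it or fell under a filter in at least 1. None of the 16 turned its direction in them. Fzd9 also lost its call without a filter on low counts, and Dkk2, Fzd9, Tcf7 and Wnt7a were not tested when at least 1 CPM in 3 samples was required. Of those not called, 4 passed in at least 1 alternative (Axin2, Fzd1, Wnt5a and Wnt5b). Leaving out each sample in turn, the count of Wnt genes higher at E18 was 6 to 13 and of those lower 4 to 7. The lowest counts of higher genes came without E18 replicate 3 or P5 replicate 6, and the highest without E18 replicate 4 or P5 replicate 8. The share of all genes called in these fits is not given here, so the counts cannot be set against it. Over the same fits the median log2 fold change was -0.06 to 0.24, and the other pathway genes counted 13 to 25 higher and 6 to 12 lower. That last count was 7 when at least 1 CPM in 3 samples was required. Ccnd1 also lost its call in the robust fit. Wls, Notum and Sostdc1 were not tested when at least 1 CPM in 3 samples was required.

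Without E18 replicates 1 and 3 together, an alternative chosen after seeing the data, 2 Wnt genes were higher and 3 lower, and 5 other pathway genes were higher and 5 lower, with fewer samples in the fit. Wnt7a turned to -0.20. The log2 fold change of Wnt3, which was not called, ranged from -0.17 to 0.02 over the samples left out and turned to 0.02 without E18 replicate 3 and 0.01 without E18 replicate 4, and the cause was not tested. No paired analysis was possible because the ages share no replicate number.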
